A study of Mus musculus with 12 samples.

Results

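The genes described here are 10 regulators of mitochondrial biogenesis, namely the PGC-1 coactivators Ppargc1a, Ppargc1b and Pprc1, the nuclear transcription factors Nrf1, Gabpa and Esrra, and the mitochondrial transcription machinery Tfam, Tfb1m, Tfb2m and Polrmt. They were found as all probe sets that the platform annotation assigns to one of these symbols and to no other gene. This gave 22 probe sets of 45037 that were not control probes, and 10 genes of 18193 that had such a probe set. Ppargc1a had 5 probe sets and Nrf1 had 4, while Gabpa, Esrra, Tfam, Tfb1m and Polrmt had 2 each and the other 3 genes had 1 each.

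Expression was measured on Affymetrix arrays in C57BL/6 mice that were 4 weeks old, in liver and in quadriceps muscle. The NP+tau group were offspring of dams that drank water with 1% taurine from the first day of pregnancy until birth while eating a normal protein diet of 20% casein. The NP group were offspring of dams on that diet without taurine, so that both groups shared the casein content, the strain and the age at sampling. There were 3 NP+tau and 3 NP samples of each tissue, 12 arrays in all. By the study's methods each pup came from another dam, and both tissues were taken from the same animal. Values are log2 expression values normalised within each tissue apart, so levels were compared only within a tissue and within a probe set.

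Mitochondria are built from proteins of the nuclear genome and of mitochondrial DNA, and the PGC-1 coactivators link these genomes. They bind transcription factors such as NRF1, GABP and ERR alpha, which switch on nuclear genes of the respiratory chain and of mitochondrial DNA transcription, and the machinery that these encode reads mitochondrial DNA. In liver, PGC-1 alpha is induced by fasting and also drives glucose production, and in muscle it is induced by exercise and supports oxidative fibres.

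Promoters were looked at because the brightest probe sets of Nrf1, Gabpa, Tfam, Tfb2m and Polrmt ran close together over the 6 liver arrays (r between 0.91 and 0.99 for their 10 pairs). This likeness rested largely on 1 array, as described with the values. It did not hold for every probe set, since those of Nrf1 (r between -0.78 and 0.70) and of Polrmt (r = -0.92) did not run together in liver. Promoter sequences of RefSeq (build GRCm38.p6, 250 bases before to 50 bases after the annotated start) were found for 9 of the 10 genes, as 10 promoters. The 7 letters CCGGAAG, the core of GABP sites, occurred on either strand in 3 of these, those of Gabpa, Tfam and Polrmt, against 8.86% of all 32851 promoters. They did not occur in those of Nrf1 and Tfb2m. The letters GCGCANGCG, the core of NRF1 sites, occurred on either strand in 3 of the 10, those of Esrra, Tfb2m and Polrmt, against 6.25% of all promoters. The ERR element TCAAGGTCA (0.423% of all promoters) and the CREB element TGACGTCA (1.79%) were not found in these windows. The stretches of the 3 genes with the GABP letters, with matches to either set, run 5′ to 3′ on the strand of the gene, with the matches in capitals.
Gabpa, chr16:84834991-84835077, plus strand: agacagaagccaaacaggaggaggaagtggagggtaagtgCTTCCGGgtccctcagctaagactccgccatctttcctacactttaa
Tfam, chr10:71238045-71238131, minus strand: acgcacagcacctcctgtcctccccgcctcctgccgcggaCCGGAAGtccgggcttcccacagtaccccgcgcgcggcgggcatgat
Polrmt, chr10:79746572-79746664, minus strand: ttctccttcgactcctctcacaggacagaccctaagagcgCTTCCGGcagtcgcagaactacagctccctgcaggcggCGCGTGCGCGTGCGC
The GABP match began 93 bases before the start in Gabpa, 47 bases before it in Tfam and 43 bases before it in Polrmt. In Polrmt, 2 overlapping NRF1 matches followed, the first beginning 5 bases before the start, and the NRF1 match of Esrra began 141 bases before its start. A match describes letters only, no binding was measured, and the part of these letters in the liver values was not tested.

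Facts of the arrays that touch the results are these. In liver, the array of NP+tau replicate 1 stood apart, with a median absolute deviation of 0.450 (log2) from the median array of its tissue, against 0.0769 and 0.112 for the other NP+tau livers and 0.0847 to 0.169 for the NP livers. Its 3′ minus 5′ signal of the control probes for Actb (0.757) and Gapdh (-0.15), a measure of RNA quality, lay within or close to the range of the other livers (0.597 to 0.836 and -0.145 to -0.111). In muscle that of Gapdh did not overlap between the groups (-0.026 to 0.049 in NP+tau and -0.107 to -0.038 in NP). That of Actb was 0.086 to 0.371 in NP+tau and -0.046 to 0.158 in NP muscles. The part of either in the muscle values was not tested. Xist, the RNA of the inactive X chromosome of females, was 11.1, 5.96 and 5.07 in NP+tau livers, against 11.7, 11.6 and 11.8 in NP livers, and Eif2s3y of the Y chromosome ran the other way, with the same split in muscle. The groups thus differed in their makeup by sex, with Xist high in 1 of 3 NP+tau and in 3 of 3 NP animals. The study's methods state that every group held pups of both sexes, which these NP values do not show. Hepatocyte markers in liver (mean over 8 genes 13.8 to 13.9 in NP+tau and 13.7 to 13.9 in NP livers) and muscle fibre markers in muscle (12 genes, 14.4 in every sample) were high throughout. In liver, 14 of 14 macrophage and Kupffer cell markers had a lower mean in NP+tau, 10 of them at an unadjusted p under 0.05, against 4.31% of all genes, and their mean level was 7.47 to 8.42 in NP+tau and 8.84 to 9.79 in NP livers. Fibroblast markers (7 of 7 lower, mean level 7.80 to 8.30 in NP+tau and 8.73 to 9.74 in NP) and neutrophil markers (10 of 12 lower, 5.04 to 5.58 in NP+tau and 6.01 to 8.47 in NP) were placed likewise. Endothelial markers (7 of 8 lower, 6.08 to 6.81 in NP+tau and 6.86 to 7.06 in NP) and erythroid markers (4 of 5 lower, 5.21 to 5.55 in NP+tau and 5.64 to 6.42 in NP) also had mean levels that did not overlap. The part of these differences in the values below was not tested. In such whole tissue, fewer cells of a type and less RNA per cell cannot be told apart.

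In liver, Ppargc1a stood lowest relative to NP among the 10 genes, at 0.357 to 0.479 times the NP level over its 5 probe sets, but no member probe set passed the test adjusted over all probe sets. Limma called 0 of 29274 probe sets in liver (0%), and 4.69% of all were at an unadjusted p under 0.05, most of them lower (3.99%) rather than higher in NP+tau (0.7%). All 22 member probe sets passed the filter on dim signal, which looks at the highest value of a probe set. Among them 17 had a lower and 5 a higher mean in NP+tau, against 54.2% of all probe sets lower, and their median difference was -0.19 against -0.04 over all. At an unadjusted p under 0.05 there were 3, all of Ppargc1a and lower. This count was 5 without NP+tau replicate 3 or without NP replicate 3, 2 without any other single liver and 0 without NP+tau replicate 1 and NP replicate 1 together. Groups did not overlap for 3, of which 2 were lower (Ppargc1a, background 9.11%) and 1 was higher (Pprc1, background 5.73%). Adjusted p of the members lay between 0.718 and 0.993.

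Ppargc1a encodes PGC-1 alpha, the inducible coactivator of the family. Its brightest probe set (1460336_at) was 6.08, 5.38 and 7.16 in NP+tau livers, against 7.85, 7.99 and 7.24 in NP livers, in the order of replicates 1 to 3. All NP+tau values lay below all NP values, with NP+tau replicate 3 only just below NP replicate 3. The mean was 6.21 ± 0.895 in NP+tau and 7.69 ± 0.398 in NP livers (SD, n = 3 each), a difference of -1.49 (SE 0.45, 95% interval -2.56 to -0.41), 0.357 times the NP level, with a limma p of 0.0138 and an adjusted p of 0.718.

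The probe set 1434100_x_at gave 5.002, 4.47 and 5.70 in NP+tau, against 6.29, 6.64 and 5.86 in NP livers, again without overlap (difference -1.20, SE 0.35, limma p 0.0115). With 1434099_at the values were 4.57, 4.30 and 5.77 in NP+tau, against 6.27, 6.76 and 5.65 in NP livers (difference -1.34, SE 0.45, limma p 0.0197). Here NP+tau replicate 3 passed NP replicate 3, so that the groups overlapped. On 1434100_x_at (4.47) and 1434099_at (4.57 and 4.30), NP+tau values lay below the liver filter limit of 4.60. The sizes of those differences are thus less certain. The 1456395_at probe set read 4.90, 5.26 and 7.25 in NP+tau, against 7.27, 8.19 and 6.35 in NP livers (difference -1.47, SE 0.70, limma p 0.0753). The last of the 5, 1437751_at, read 5.67, 5.69 and 6.94 in NP+tau, against 7.11, 7.83 and 6.53 in NP livers (difference -1.06, SE 0.45, limma p 0.052). All 5 probe sets put NP+tau replicates 1 and 2 below every NP liver and NP+tau replicate 3 near or above NP replicate 3, and they correlated with each other over the 6 arrays at r between 0.905 and 0.992. They report on one transcript pool and are not independent of each other.

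Leaving out 1 liver at a time kept the 1460336_at difference between -1.96 (without NP+tau replicate 3) and -1.07 (without NP+tau replicate 2), and without the array that stood apart it was -1.42. Without NP+tau replicate 1 and NP replicate 1 together it was -1.34 (limma p 0.0753).

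**Figure D1:**
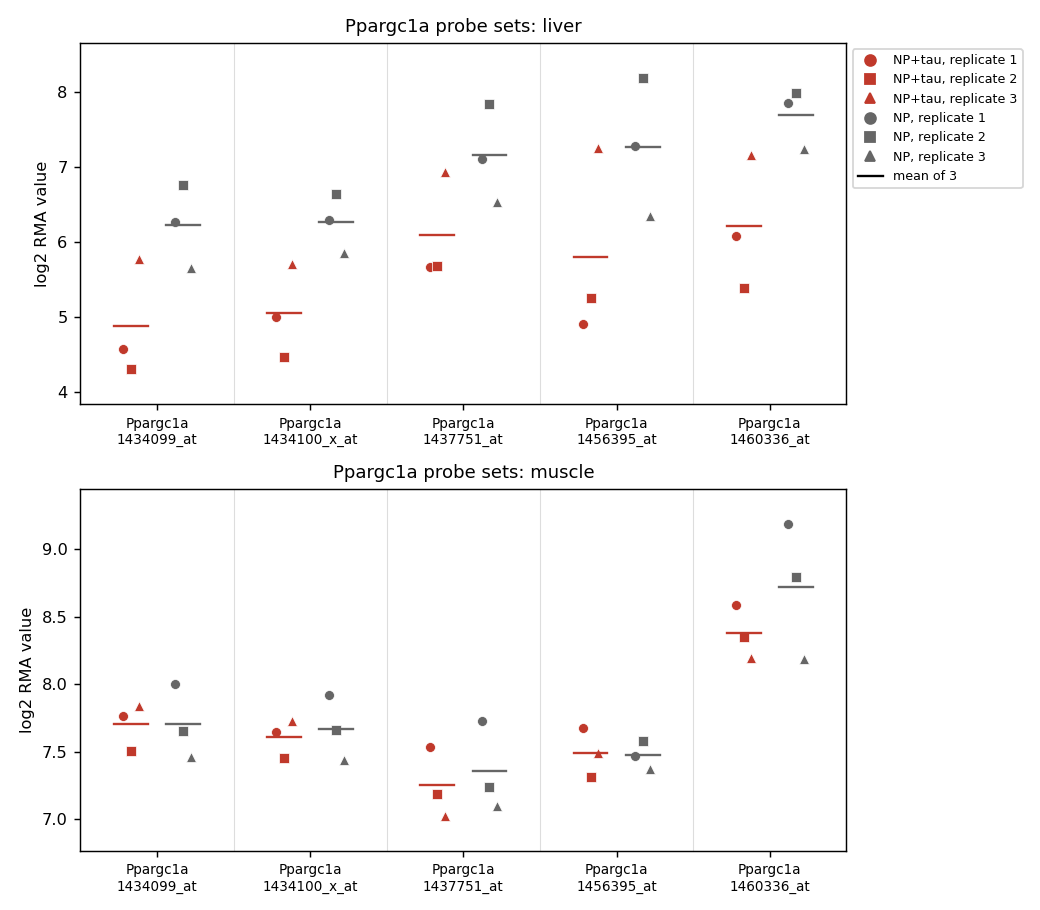
Log2 expression values (vertical axis) of the 5 Ppargc1a probe sets in liver (top) and muscle (bottom), one point per animal, NP+tau in red left of NP in grey, horizontal lines marking means of 3 samples. In liver NP+tau replicates 1 and 2 lie below all NP livers on each probe set, and in muscle the groups overlap on each.

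In muscle the same probe sets of Ppargc1a showed no such difference. The 1460336_at probe set was 8.59, 8.35 and 8.20 in NP+tau muscles, against 9.19, 8.79 and 8.19 in NP muscles (difference -0.35, SE 0.27, 95% interval -0.98 to 0.28, adjusted p in limma 0.718). The groups overlapped, and NP replicate 1 was highest. The other 4 probe sets differed by -0.11 to 0.02, and agreement among the 5 was looser than in liver (r between 0.361 and 0.976). The liver difference minus the muscle difference was -1.14 for 1434100_x_at (95% interval -2.05 to -0.23, interaction p in limma 0.0184), -1.35 for 1434099_at (-2.48 to -0.21, p 0.024) and -1.14 for 1460336_at (-2.38 to 0.10, p 0.0684). It was -1.48 for 1456395_at (-3.19 to 0.22, p 0.0823) and -0.96 for 1437751_at (-2.14 to 0.23, p 0.104), so that the intervals of 3 of the 5 included 0. Adjusted over the 25622 probe sets kept in both tissues, each was at 0.542, limma called 0% of them, and 7.8% of all were at an unadjusted p under 0.05.

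The other coactivators did not follow Ppargc1a. Ppargc1b encodes PGC-1 beta, which shares most partners with PGC-1 alpha. Its probe set (1449945_at) was 6.36, 7.17 and 7.59 in NP+tau livers, against 7.29, 7.28 and 6.94 in NP livers (difference -0.12, SE 0.32). NP+tau livers held both the lowest and the highest value. In muscle Ppargc1b was 9.51, 8.74 and 9.39 in NP+tau, against 8.09, 9.61 and 9.44 in NP (difference 0.16, SE 0.42), and the single low value was NP replicate 1.

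Pprc1 encodes PRC, the family member induced when cells enter growth. It was 6.89, 6.80 and 6.85 in NP+tau livers, against 6.75, 5.92 and 6.66 in NP livers (1426381_at, difference 0.40, SE 0.25, 95% interval -0.19 to 0.99, adjusted p in limma 0.718). The groups did not overlap, yet NP+tau livers lay closely above 2 of the NP livers, and NP replicate 2 was low alone. Without that replicate the difference was 0.14. In muscle Pprc1 was 7.07, 8.22 and 7.61 in NP+tau, against 6.80, 6.72 and 7.60 in NP (difference 0.59, SE 0.35, adjusted p in limma 0.708), with NP+tau means higher and groups overlapping. It was the largest muscle difference among the 10 genes and did not pass. With Xist as a covariate it was 0.07, a fit that in effect set NP+tau replicate 1 against NP.

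Nrf1 encodes nuclear respiratory factor 1. Its brightest liver probe set (1434627_at) was 4.86, 5.90 and 5.83 in NP+tau, against 5.77, 5.76 and 5.72 in NP livers (difference -0.22, SE 0.30). Only NP+tau replicate 1 lay apart, and the other NP+tau livers were above all NP livers. The 4 Nrf1 probe sets did not run together in liver (r between -0.78 and 0.70) or in muscle (-0.33 to 0.78), and their differences lay between -0.22 and 0.00 in liver and between -0.11 and 0.22 in muscle. The brightest muscle probe set (1424787_a_at) was 6.34, 7.14 and 5.70 in NP+tau, against 6.75, 6.41 and 6.36 in NP, the widest spread within a group falling in NP+tau.

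Gabpa encodes the DNA-binding subunit of GABP, also called NRF2 in this field. It was 6.86, 7.92 and 7.90 in NP+tau livers, against 7.77, 7.83 and 7.96 in NP livers (1450664_at, difference -0.29, SE 0.31). Again NP+tau replicate 1 was low alone. In muscle Gabpa was 8.19, 9.12 and 8.35 in NP+tau, against 8.44, 8.29 and 8.03 in NP (difference 0.30, SE 0.27), the high value being NP+tau replicate 2, and its second probe set gave a difference of 0.46.

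Esrra encodes ERR alpha, an orphan nuclear receptor that PGC-1 alpha coactivates. It was 7.25, 7.60 and 7.42 in NP+tau livers, against 7.59, 7.53 and 7.74 in NP livers (1460652_at, difference -0.20, SE 0.17). In muscle Esrra was 8.96, 8.33 and 8.74 in NP+tau, against 8.76, 8.87 and 8.80 in NP (difference -0.13, SE 0.19). Groups overlapped in both tissues, and these were among the narrowest intervals of the 10 genes, -0.61 to 0.21 in liver and -0.57 to 0.31 in muscle.

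**Figure D2:**
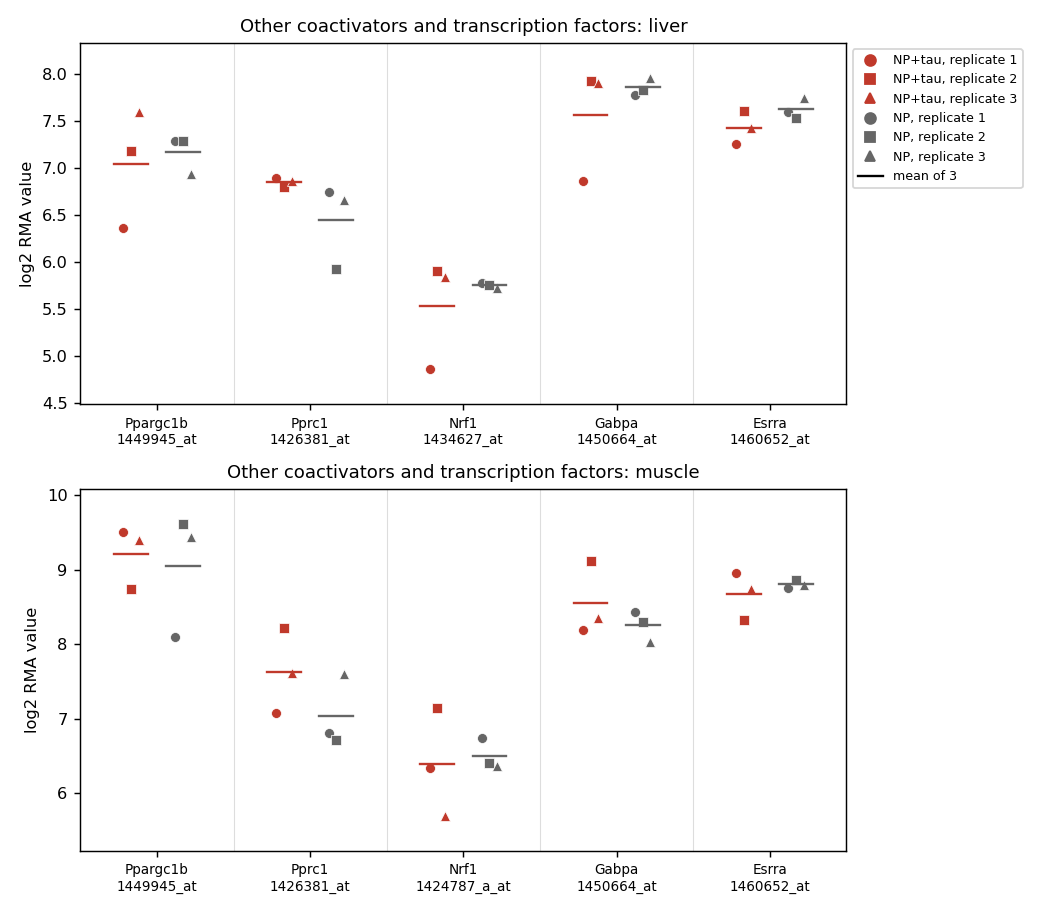
Log2 expression values (vertical axis) of the brightest probe set of the other coactivators and of the transcription factors in liver (top) and muscle (bottom), one point per animal, NP+tau in red left of NP in grey, lines marking means of 3. In liver NP+tau replicate 1 is the lowest point for Ppargc1b, Nrf1, Gabpa and Esrra, whereas Pprc1 lies above all NP livers in all 3 NP+tau livers.

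The brightest probe sets of the mitochondrial transcription machinery had lower means in NP+tau livers for 3 of 4 genes (median difference -0.47). In NP+tau muscles they had higher means for 4 of 4 (median 0.30). Over all genes 53.5% were lower in liver and 54.6% higher in muscle. The other probe sets differed in muscle by -0.07 for Tfam, -0.09 for Polrmt and 0.35 for Tfb1m. In liver these differences were -0.08, 0.19 and 0.30. Of the machinery, 0 probe sets were called in either tissue. Limma called 0 of 29274 probe sets in muscle (0%), with 6.12% of all at an unadjusted p under 0.05, 3.72% higher and 2.4% lower. Among the 22 member probe sets 14 had a higher mean in NP+tau muscles, against 51.8% of all, and their median difference was 0.12 against 0.01 over all. At an unadjusted p under 0.05 there was 1, of Tfb1m, and groups did not overlap for 2, of Tfam and Tfb1m, both higher (background 7.33%). Adjusted p of the members in muscle lay between 0.707 and 0.998.

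Tfam encodes the factor that packs mitochondrial DNA and bends its promoters for transcription. It was 6.22, 8.13 and 8.70 in NP+tau livers, against 7.93, 8.51 and 8.70 in NP livers (1448224_at, difference -0.70, SE 0.61, 95% interval -2.15 to 0.76). The low value of NP+tau replicate 1 carried the difference, which was 0.04 without it. In muscle Tfam was 8.78, 8.96 and 8.78 in NP+tau, against 8.36, 8.74 and 8.58 in NP (difference 0.28, SE 0.16, limma p 0.112, adjusted p 0.707). All 3 NP+tau muscles lay above all NP muscles, by little over NP replicate 2. The dimmer Tfam probe set (1456215_at) did not follow it in muscle, with a difference of -0.07 and r = 0.06 to the first over 6 arrays.

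Polrmt encodes the RNA polymerase of mitochondria. Its probe set 1437377_a_at was 5.45, 7.96 and 7.99 in NP+tau livers, against 7.41, 7.93 and 7.97 in NP livers (difference -0.64, SE 0.67). NP+tau replicate 1 was far below the other livers, and NP replicate 1 came next. The probe set 1452835_a_at read the other way, with 7.73, 7.25 and 7.10 in NP+tau, against 7.11, 7.21 and 7.19 in NP livers (difference 0.19, SE 0.21). The 2 probe sets correlated at r = -0.92 over the 6 livers, and NP+tau replicate 1 was the lowest on one and the highest on the other. In muscle they gave differences of 0.30 and -0.09.

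Tfb2m encodes the factor that starts transcription together with the polymerase. It was 7.34, 8.57 and 8.45 in NP+tau livers, against 8.22, 8.35 and 8.71 in NP livers (1423441_at, difference -0.31, SE 0.35), with NP+tau replicate 1 low. In muscle Tfb2m was 9.30, 9.69 and 9.21 in NP+tau, against 9.27, 9.06 and 8.99 in NP (difference 0.29, SE 0.18, adjusted p in limma 0.708), the NP+tau values reaching higher with overlap at NP replicate 1.

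Tfb1m encodes a methyltransferase of the small ribosomal RNA of mitochondria. In liver it was 7.36, 8.48 and 7.79 in NP+tau, against 7.49, 7.75 and 7.87 in NP (1449749_s_at, difference 0.17, SE 0.30), so that NP+tau livers held the lowest and the highest value. In muscle the same probe set was 7.72, 7.39 and 7.59 in NP+tau, against 6.79, 7.41 and 7.18 in NP (difference 0.44, SE 0.20, limma p 0.0592). The dimmer 1435924_at was 5.41, 5.26 and 5.48 in NP+tau muscles, against 5.07, 5.09 and 4.93 in NP muscles (difference 0.35, SE 0.14, 95% interval 0.03 to 0.68, limma p 0.0361, adjusted p 0.707). Its groups did not overlap, it lay not far above the filter limit of 4.49, and it was the only member probe set in muscle at an unadjusted p under 0.05. That p was 0.0295 without NP+tau replicate 2 and between 0.0593 and 0.112 without any other single muscle.

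**Figure D3:**
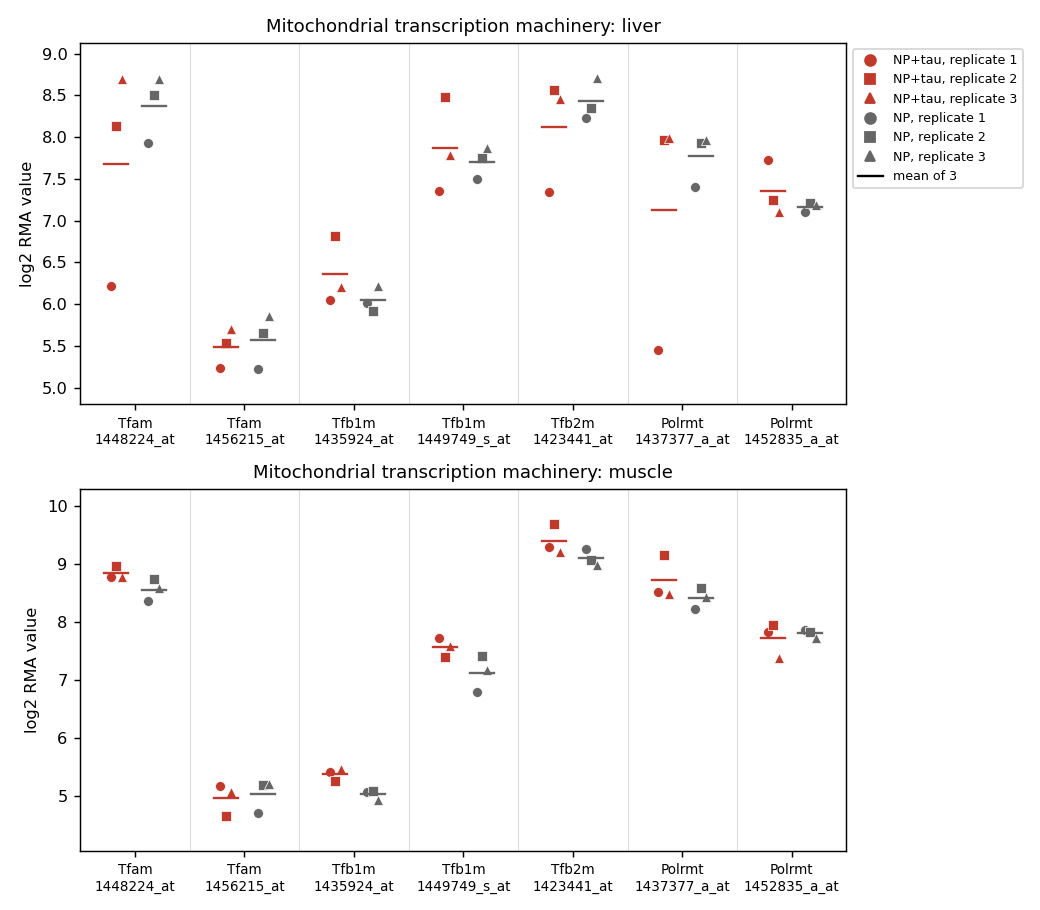
Log2 expression values (vertical axis) of all probe sets of Tfam, Tfb1m, Tfb2m and Polrmt in liver (top) and muscle (bottom), one point per animal, NP+tau in red left of NP in grey, lines marking means of 3. In liver NP+tau replicate 1 is far below the rest for Tfam 1448224_at (6.22), Tfb2m (7.34) and Polrmt 1437377_a_at (5.45), and highest for Polrmt 1452835_a_at (7.73).

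The lower means of these genes in liver rested on that array. By the brightest probe set of each gene, 8 of 10 members had a lower mean in NP+tau livers (median difference -0.26), and without NP+tau replicate 1 only Ppargc1a (-1.42) and Esrra (-0.11) did, with 8 of 10 higher and a median of 0.10. Leaving out any other liver gave 8 or 9 of 10 lower. Correlations between pairs of members over the livers had a median r of 0.64, with 10 of 45 pairs above 0.9, against a median of 0.10 and 1 such pair over the 5 livers without that array, and a median of 0.15 over the 6 muscles. The 10 pairs were those among Nrf1, Gabpa, Tfam, Tfb2m and Polrmt, and the pair still above 0.9 over 5 livers was Gabpa and Tfb2m (r = 0.97). In muscle 7 of 10 members had a higher mean in NP+tau (median 0.29), and 7 or 8 of 10 did with any 1 muscle left out, with the median lowest (0.12) without NP+tau replicate 2.

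**Figure D4:**
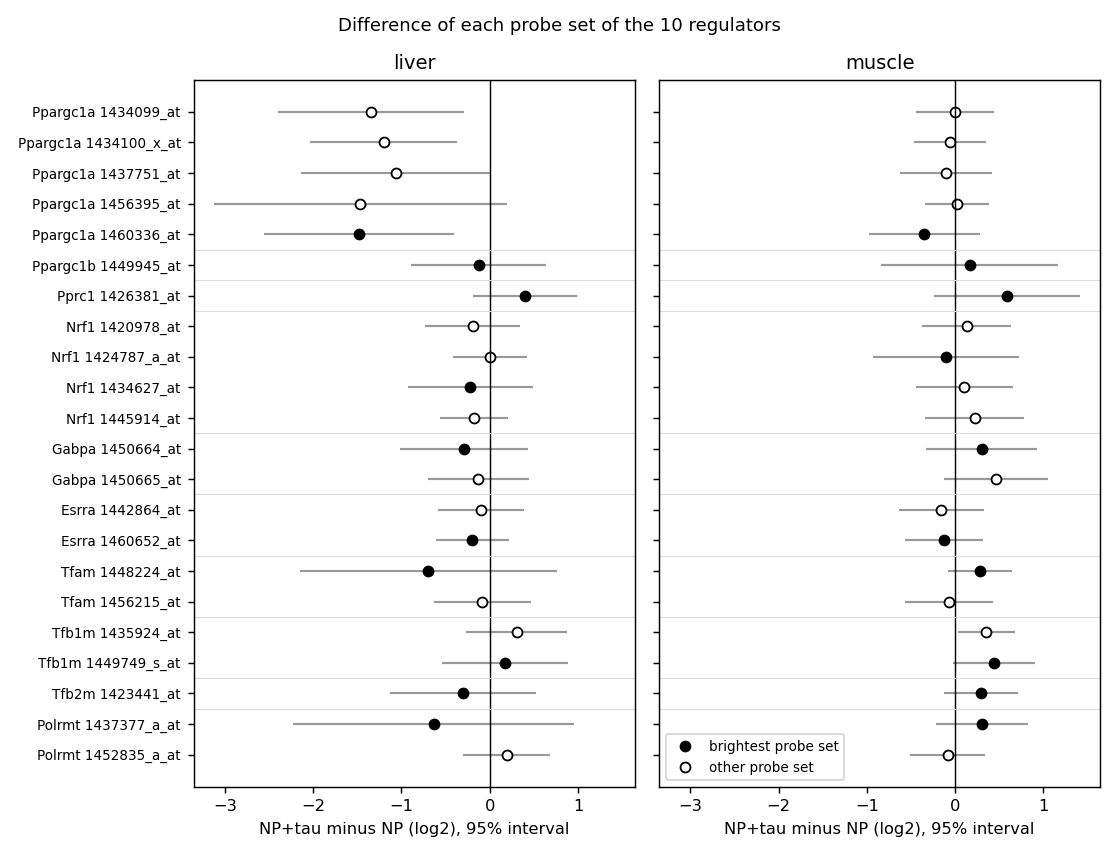
Log2 difference of NP+tau from NP (horizontal axis, above 0 where NP+tau is higher) with its 95% interval from limma for each of the 22 probe sets (rows), in liver (left) and muscle (right), filled points marking the brightest probe set of a gene in that tissue. The intervals of 3 Ppargc1a probe sets in liver and of Tfb1m 1435924_at in muscle leave out 0 before adjustment, and none passed after it.

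Genes around the regulators were described by lists, with the brightest probe set of each gene, against a median difference over all genes of -0.03 in liver (53.5% lower) and 0.03 in muscle (54.6% higher). No gene of a list passed the adjusted test in either tissue, with adjusted p of 0.718 in liver and 0.707 in muscle for every gene named by the rule, and at an unadjusted p under 0.05 there were 5.14% of all genes in liver and 6.32% in muscle.

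With NP+tau replicate 1 left out, the median of a list moved up in liver for each of the 6 lists, and values without it are given with each.

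Regulators of PGC-1 expression and activity had lower means for 18 of 28 genes in liver (median -0.11), 3 of them at an unadjusted p under 0.05 and 0 higher. The list averaged 6.89, 7.21 and 7.27 in NP+tau livers, against 7.36, 7.24 and 7.35 in NP livers, and without NP+tau replicate 1 it had 17 of 28 lower (median -0.05), against a median of -0.22 without NP+tau replicate 3. Rb1, the retinoblastoma protein, which restrains oxidative metabolism, was 5.03, 5.24 and 5.42 in NP+tau livers, against 6.33, 5.77 and 5.81 in NP livers (difference -0.74, SE 0.22). Ppp3ca, the catalytic subunit of calcineurin, differed by -0.71 and Mef2a, a factor that activates the Ppargc1a promoter in muscle, by -0.50, each without overlap of the groups. For both, NP+tau replicate 3 lay just below the nearest NP liver. Ppp3ca was lowest in NP+tau replicate 1 (6.94, against 7.63 and 8.02 in the other NP+tau livers and 8.09 to 8.45 in NP livers). In muscle 14 of 31 were higher (median -0.03, and 0.08 without NP replicate 1), with 2 at an unadjusted p under 0.05, against 6.32% of all genes. Both were subunits of AMPK, the energy sensor that acts on PGC-1 alpha. Prkaa1 was 5.10, 6.03 and 5.56 in NP+tau muscles, against 4.78, 4.66 and 4.88 in NP muscles (difference 0.79, SE 0.24), the NP values lying not far above the filter limit of 4.49. Prkab2 was 10.07, 9.70 and 9.96 in NP+tau muscles, against 8.19, 9.26 and 9.68 in NP muscles (difference 0.87, SE 0.37). All NP+tau lay above all NP for both, but only just for Prkab2, of which NP replicate 1 was low alone.

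Among nuclear receptor and factor partners of PGC-1, 17 of 26 had lower means in liver (median -0.10, and 15 of 26 with a median of -0.08 without NP+tau replicate 1), with Crebbp, a histone acetyltransferase, at an unadjusted p under 0.05 (-0.67, SE 0.26). The liver median was -0.06 without NP replicate 3. Crebbp was 7.004, 7.43 and 7.85 in NP+tau livers, against 8.29, 7.86 and 8.13 in NP livers, and thus lowest in NP+tau replicate 1. In muscle 14 of 26 were higher (median 0.03), and the median was -0.03 without NP+tau replicate 2 or without NP+tau replicate 3. Esrrg, which encodes ERR gamma, the relative of ERR alpha found in oxidative muscle, was 7.25, 6.91 and 6.72 in NP+tau muscles, against 5.79, 6.04 and 6.20 in NP muscles (difference 0.95, SE 0.19, limma p 0.00161, adjusted p 0.707). All NP+tau muscles lay above all NP muscles. Gabpb1, the partner subunit of the protein that Gabpa encodes, differed by 0.44 (SE 0.17). Thra, a thyroid hormone receptor, was the only gene of the list lower at an unadjusted p under 0.05 (-0.63, SE 0.21), against 2.08% of all genes.

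Genes of mitochondrial DNA maintenance and transcription were lower for 15 of 26 in liver (median -0.06) and higher for 20 of 25 in muscle (median 0.16). Without NP+tau replicate 1, whose list mean of 7.18 compared with 7.67 and 7.75 in the other NP+tau livers and 7.55 to 7.79 in NP livers, 8 of 26 were lower (median 0.08), and without NP replicate 3 the liver median was 0.03. Slc25a4, the adenine nucleotide carrier of heart and muscle, was 9.14, 9.28 and 9.93 in NP+tau livers, against 11.27, 10.93 and 10.33 in NP livers (difference -1.40, SE 0.32, limma p 0.00314), without overlap. In muscle Ssbp1, which coats single-stranded mitochondrial DNA, differed by 0.58 (SE 0.24) and Mterf3, a factor of the mitochondrial termination factor family, by 0.55 (SE 0.23). In both cases NP+tau replicate 2 was highest.

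Target genes of NRF1 and GABP, mostly subunits of the respiratory chain and import proteins, were higher for 17 of 28 in liver (median 0.06) and for 22 of 27 in muscle (median 0.15). In liver the count was 23 without NP+tau replicate 1 (median 0.13), and the median was -0.03 without NP+tau replicate 2 and -0.01 without NP replicate 1. In muscle it was 0.07 without NP replicate 1. In liver 0 were higher and 2 lower at an unadjusted p under 0.05, Tomm20, an import receptor of the outer membrane (-0.54, SE 0.22), and Mef2a. In muscle 2 were higher at that level, Hspd1, a chaperone of the matrix (0.43, SE 0.15), and Tomm70a, a second import receptor (0.41, SE 0.16), both without overlap.

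Target genes of PGC-1 alpha and ERR alpha were higher for 19 of 32 in liver (median 0.05) and for 25 of 32 in muscle (median 0.17). In liver 22 of 32 were higher without NP+tau replicate 1 (median 0.11), and the median was -0.05 without NP+tau replicate 3 and -0.08 without NP replicate 1. In muscle 18 of 32 were higher without NP+tau replicate 1 (median 0.11) and 20 of 32 without NP replicate 1 (median 0.09). In liver Cs, citrate synthase of the tricarboxylic acid cycle, was 9.96, 10.48 and 9.99 in NP+tau, against 9.62, 9.59 and 9.78 in NP livers (difference 0.48, SE 0.20), above all NP livers while Ppargc1a was below them. It was the only target higher at an unadjusted p under 0.05, against 0.827% of all genes. Over the 32 target genes in liver the correlation with Ppargc1a had a median r of -0.08, against 0.06 over all genes, at 6 arrays. It was lowest for Cs (-0.93), Txn2 (-0.88) and Cpt2 (-0.80) and highest for Pck1 (0.86), Idh3a (0.56) and Fgf21 (0.54). The targets Pck1 and G6pc were picked after their values were seen. Pck1, an early enzyme of glucose production, was 10.84, 9.51 and 12.52 in NP+tau livers, against 11.48, 12.64 and 11.96 in NP livers (difference -1.07, SE 0.72), lowest in NP+tau replicate 2 as Ppargc1a was, with overlapping groups. G6pc, which releases free glucose, was 10.17, 9.45 and 11.91 in NP+tau livers, against 9.66, 11.77 and 11.49 in NP livers (difference -0.46, SE 0.76, r = 0.54).

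In muscle 5 PGC-1 alpha and ERR alpha targets were at an unadjusted p under 0.05, all higher, beside 4.24% of all genes. Cpt2, which completes the entry of fatty acids into mitochondria, was 10.17, 9.89 and 10.03 in NP+tau muscles, against 9.29, 9.38 and 9.51 in NP muscles (difference 0.64, SE 0.14, limma p 0.00299, adjusted p 0.707). Fndc5, the precursor of irisin, was 8.53, 7.70 and 7.69 in NP+tau muscles, against 6.16, 7.02 and 7.30 in NP muscles (difference 1.15, SE 0.36). Both had all NP+tau muscles above all NP muscles. Acadvl, which begins the oxidation of very long fatty acids, differed by 0.59 (SE 0.22), Ckmt2, the mitochondrial creatine kinase of muscle, by 0.54 (SE 0.23) and Cat, catalase, by 0.77 (SE 0.26). Slow fibre markers had a higher mean in NP+tau muscles for 8 of 8 genes (median 0.25, mean level 10.9 to 12.4 in NP+tau and 11.1 to 11.7 in NP muscles), 0 of them at an unadjusted p under 0.05, and endothelial markers for 7 of 8 (8.04 to 8.24 in NP+tau and 7.66 to 7.89 in NP muscles), and their part in the muscle values was not tested.

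Genes of mitochondrial fission, fusion and removal were lower for 12 of 15 in liver (median -0.20) and higher for 11 of 15 in muscle (median 0.19), with 0 at an unadjusted p under 0.05 in either tissue. The list averaged 8.32, 8.79 and 8.76 in NP+tau livers, against 8.78, 8.76 and 8.83 in NP livers, and without NP+tau replicate 1 it had 7 of 15 lower (median 0.03). In muscle 9 of 15 were higher without NP+tau replicate 2 (median 0.04).

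**Figure D5:**
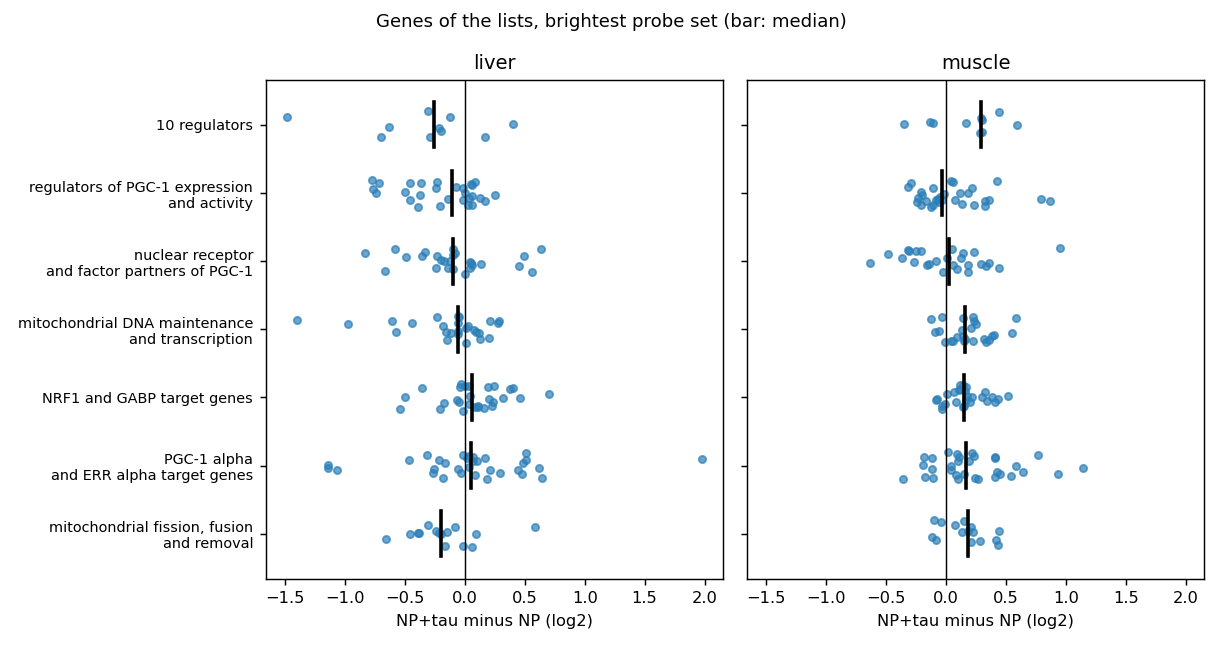
Log2 difference of NP+tau from NP (horizontal axis, above 0 where NP+tau is higher) of each gene of the 10 regulators and of 6 pathway lists (rows), in liver (left) and muscle (right), one point per gene and a bar at the median. The median of the regulators is -0.26 in liver and 0.29 in muscle, and the target gene lists have medians of 0.05 and 0.06 in liver and of 0.15 and 0.17 in muscle.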

How the data were processed

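The log2 expression values deposited by the authors were made from Affymetrix mouse arrays with RMA and quantile normalisation of each tissue apart. They hold 45101 probe sets, 64 of them control probes, which were removed. A probe set was kept in a tissue when its highest value reached the 35th percentile of such values (limits 4.60 in liver and 4.49 in muscle), which left 29274 in each. Symbols came from the platform annotation, in which 932 probe sets had several symbols and 9160 had none. For each tissue, a linear model (R 4.3.3, limma 3.58.1, lmFit then eBayes, two-sided) gave NP+tau minus NP, and p-values were adjusted by Benjamini-Hochberg over every kept probe set, with calls at an adjusted p under 0.05. An interaction over all 12 arrays compared the tissues, treating both tissues of an animal as independent. The script was tested on simulated data. A gene was represented by its brightest probe set. For the 10 regulators the differences of all 22 probe sets were plotted with their intervals, and the text gives only some of the others. For genes of the lists only the brightest probe set was described, so agreement across their probe sets was not shown. From each list and tissue, up to 5 genes with the smallest unadjusted p under 0.05 were named. The regulators, the lists and the tests were chosen with earlier results of these data known. The number of arrays limits the precision. The p-values set a difference against the spread within groups of 3 animals, which eBayes draws toward that of all kept probe sets. The alternatives were other filters, an intensity trend, array weights, centring, Xist as a covariate, a replicate block, a looser threshold, the mean over the probe sets of a gene, and arrays left out. Leaving out arrays for the lists was added after seeing the data. The block shared by both tissues was fitted through statmod 1.5.0, and python 3.11.15 with matplotlib 3.10.9 served for the figures.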

Additional observations from a re-analysis of the deposited data

How the results depend on the processing

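Limma called 0 probe sets in liver as reported, 8 with array weights, 9449 with Xist as a covariate, 9 without NP and NP+tau replicate 1 together, and 0 to 9 with 1 liver left out (9 without NP+tau replicate 1, 1 without NP replicate 3). The Xist fit in effect set NP+tau replicate 1, the sole NP+tau liver with high Xist, against NP. It called 7 of the 22 member probe sets, and no other alternative called any. In muscle 0 were called, and 0 to 8 with 1 muscle left out (8 without NP+tau replicate 1). Between tissues 0 to 2 were called with 1 array left out (2 without NP liver replicate 3).

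The 5 Ppargc1a probe sets in liver kept their sign under every alternative. Over all 22 member probe sets, the sign changed in liver for 8 with array weights and for 8 without both replicates 1. It changed there for 2 with centring and for 1 with Xist as a covariate. In muscle it changed for 8 with Xist as a covariate, 4 with array weights and 2 with centring. Below, a gene stands for its brightest probe set unless another is named, so that not every change is listed. With array weights the liver differences of Ppargc1b (0.21), Nrf1 (0.093), Gabpa (0.0085), Tfb2m (0.0070) and Polrmt (0.027) turned positive, as did, without both replicates 1, Ppargc1b (0.27), Nrf1 (0.13), Gabpa (0.016) and Polrmt (0.027), while Polrmt 1452835_a_at turned negative (-0.020). With Xist as a covariate Tfb1m in liver (-0.36) and, in muscle, Gabpa (-0.048), Esrra (0.14) and Tfam 1456215_at (0.13) changed sign. With 1 array left out the liver differences lay between -0.40 and 0.22 for Ppargc1b, -0.40 and 0.12 for Nrf1, -0.47 and 0.056 for Gabpa, -1.21 and 0.036 for Tfam, -0.13 and 0.43 for Tfb1m, -0.53 and 0.084 for Tfb2m and -1.06 and 0.21 for Polrmt. In muscle they lay between -0.31 and 0.45 for Ppargc1b, -0.48 and 0.24 for Nrf1, -0.27 and 0.044 for Esrra and -0.23 and 0.085 for Tfam 1456215_at. With the mean over the probe sets of a gene, the differences were 0.11 for Tfam, 0.11 for Polrmt, 0.088 for Nrf1 and -0.099 for Ppargc1a in muscle and -0.22 for Polrmt and -0.39 for Tfam in liver. The count of member probe sets at an unadjusted p under 0.05 in liver was 12 with Xist as a covariate. That fit in effect set NP+tau replicate 1 against NP, as said above. The cause of the changes under the other alternatives was not tested.

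The replicate number did not pair the samples, since same-numbered NP+tau and NP arrays deviated together at r between -0.11 and 0.11 in liver and between -0.27 and 0.33 in muscle. With the replicate number as a block 0 probe sets were called in either tissue, and Ppargc1a 1460336_at in liver stayed at -1.49 (limma p 0.0303), while Tfb1m 1435924_at in muscle had a limma p of 0.0767 with the block and 0.0361 without it. The block shared by liver and muscle changed no call.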

Other observations

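Genes whose liver profile was most like that of Ppargc1a were looked up among 14276 genes by Pearson r over the 6 arrays, as a description. They were Ccng2, a cyclin family member (r = 0.9996, difference -1.20), Tmem131 (r = 0.99, difference -0.38) and Reln, a secreted matrix protein (r = 0.99, difference -0.73). In all, 147 genes had an r above 0.9. Among the other regulators Tfam came closest (r = 0.45) and Pprc1 ran the other way (r = -0.57). These r depended on NP+tau replicate 1. Without it Tfam was still closest (r = 0.19), and r went from 0.29 to -0.83 for Nrf1 and from -0.50 to -0.95 for Tfb1m. In muscle the most alike of 13829 genes were Il3ra, Syndig1 and 1700125H20Rik (r of 0.987 to 0.998), with 255 genes above 0.9, and Pprc1 again ran the other way (r = -0.77). Over 6 arrays these values describe the profiles only.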
